A study of Mus musculus with 54 samples.

Results

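Mammary glands of mice on lactation day 1 were compared with glands of mice on pregnancy day 17.5, the time points on either side of birth. The comparison used the arrays titled with these 2 time points and all probe sets that are not array controls. It took 6 of the 54 arrays of a developmental series, 3 per time point. The series covers 18 time points from virgin females through pregnancy and lactation to involution. Every array held RNA of 1 inguinal gland of 1 mouse, taken without its lymph node, and no animals were pooled. The mice of both groups had been mated at 12 weeks of age, pregnancy was counted from day 0.5 on the morning of the plug, and housing was standard. No strain is named in the labels. No agent or allele differed between the groups, so birth, suckling and the change in hormones cannot be told apart.

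Between late pregnancy and the first day of lactation the gland passes through secretory activation. Alveolar cells, which already make some milk proteins, begin to secrete milk in bulk. In mice the fall of progesterone at birth, with prolactin and glucocorticoid present, is the known trigger. Progesterone acts on part of the luminal cells, which then signal to their neighbours through secreted factors such as RANKL (gene Tnfsf11) and Wnt4. Milk secretion draws on glucose, amino acids, phosphate, calcium and zinc from the blood, and on carriers that move them across the alveolar cell. The tight junctions between alveolar cells close at this stage.

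The arrays were alike in scale, with a 2% trimmed mean signal of 100.063 to 100.07, and the median signal was 37.1 to 39.6 at lactation day 1 and 33.6 to 37.85 at pregnancy day 17.5. The 3' to 5' ratios, which gauge RNA integrity, were on average higher at pregnancy day 17.5. For beta-actin, the 3' probe set read over the 5' one gave a ratio of 1.60 ± 0.172 at lactation day 1 and 2.25 ± 0.455 at pregnancy day 17.5 (SD, n = 3 each), and that of Gapdh was 0.983 ± 0.0475 and 2.17 ± 1.08. Pregnancy mouse A, at 1.74 and 0.982, lay within the lactation day 1 ranges of 1.43 to 1.77 and 0.939 to 1.03. The part of RNA integrity in the results was not tested beyond a refit that held the beta-actin ratio constant. Pearson correlations of log2 signal were 0.937 to 0.948 within lactation day 1, 0.927 to 0.952 within pregnancy day 17.5 and 0.826 to 0.935 across them. Each lactation day 1 array was closest to a lactation day 3 array, and pregnancy mouse B was closest to a pregnancy day 14.5 array.

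Signal was floored at 9.4 and taken to log2, and limma tested 7311 features, 1 per gene where the gene is named. After Benjamini-Hochberg adjustment 1783 features passed an adjusted p of 0.05, which is 24.4% of those tested. Of these, 747 (10.2%) were higher and 1036 (14.2%) were lower at lactation day 1. Without lactation mouse B the total was 954, and without pregnancy mouse B the higher count was 495. More than 2-fold, 408 were higher and 516 lower, and more than 8-fold, 12 were higher and 9 lower. The 3 arrays of one group lay wholly above or below the other's for 2688 features (36.8%), with lactation day 1 above in 17.1% and below in 19.7%. Since every feature came from a whole gland, fewer cells of a type and less RNA per cell cannot be told apart in any result here.

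The shares of members called in 35 gene lists differed widely from these background shares. Cholesterol synthesis, milk proteins and the proteins of the endoplasmic reticulum held the highest shares of higher calls. Fatty acid uptake and oxidation, the list of EGF family and ERBB receptor genes, and immediate early genes held the highest shares of lower calls. For the EGF and ERBB list that share was 3 of 7 measured members. These were Erbb3, Errfi1 and Adam10, of which only Erbb3 is an ERBB receptor. The share was 1 of 7 without lactation mouse B, without pregnancy mouse C and with array quality weights. It was also 1 of 7 when the beta-actin ratio entered the model and in a fit of the 6 arrays alone.

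**Figure D1:**
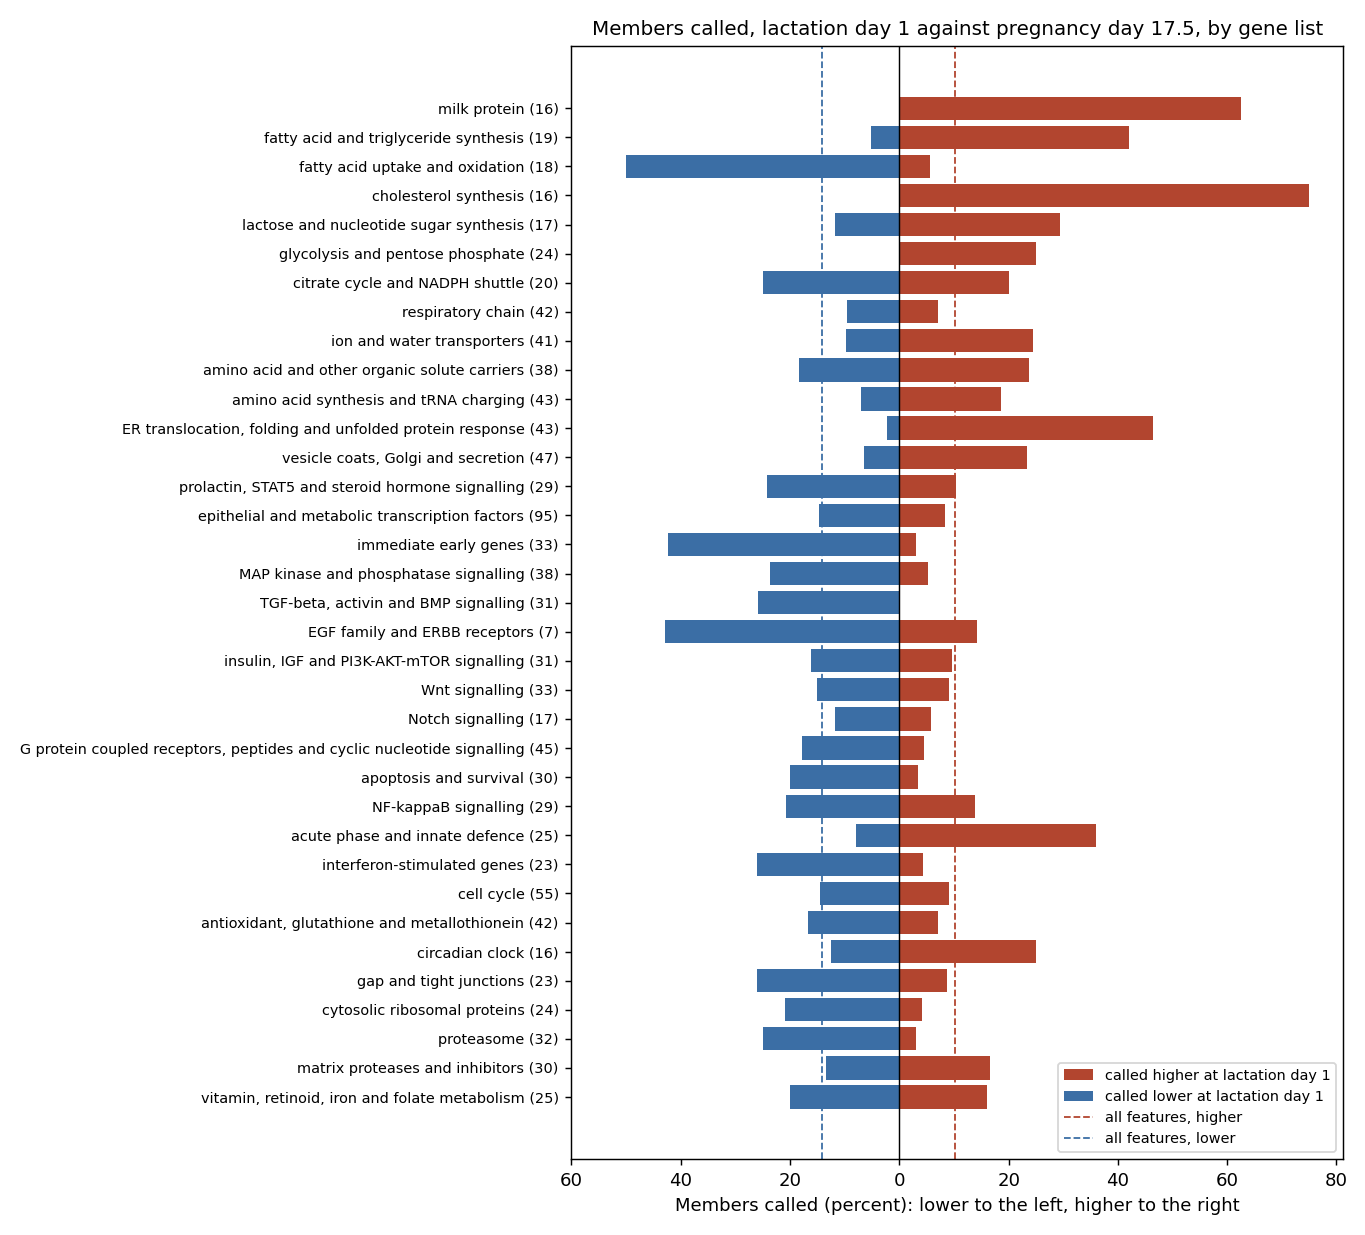
Share of the measured members of each of 35 gene lists (number measured in brackets) called higher (red, to the right) or lower (blue, to the left) at lactation day 1 against pregnancy day 17.5, in percent. Dashed lines mark 10.2% higher and 14.2% lower, the shares over all 7311 features.

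Milk and lipid genes placed the 2 groups where their labels put them. Lalba, the alpha-lactalbumin subunit of lactose synthase, had signals of 8004, 9055 and 8456 at lactation day 1, against 1029, 600.5 and 1839 at pregnancy day 17.5 (8.14-fold, adjusted p = 0.0017). Csn1s2b, an alpha-S2-like casein, had 1811, 5180.4 and 5162 at lactation day 1 and 281, 150.0 and 76.5 at pregnancy day 17.5 (24.7-fold, adjusted p = 4.1e-10). Wap, the whey acidic protein, which was chosen after its values were seen, had 12936, 12577 and 11979 at lactation day 1 against 7174, 7830.3 and 10193 at pregnancy day 17.5 and did not pass (adjusted p = 0.62). The groups did not overlap for Wap, but its spread over the other time points gave the difference of 0.59 in log2 a standard error of 0.78. Of 16 milk protein genes, 10 were higher and 0 lower, and the median log2 difference was 1.62, against -0.03 over all features. In cholesterol synthesis 12 of 16 were higher, or 7 without lactation mouse B, 7 without pregnancy mouse C and 6 in a fit of the 6 arrays alone. Cidea, a lipid droplet protein of brown fat and lactating epithelium, had 4044, 5962 and 4755 at lactation day 1 and 309.9, 159 and 125 at pregnancy day 17.5, a 26.5-fold difference (adjusted p = 1.1e-14). The other measured brown fat markers, Ucp1 among them, did not pass.

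Slc34a2 and Atp2b2 stood among the largest rises. Slc34a2, the sodium phosphate cotransporter NaPi-IIb, had signals of 1415, 2821 and 3456 at lactation day 1, against 124, 90.3 and 121 at pregnancy day 17.5. The lowest lactating gland was over the highest pregnant one by a wide margin, and the fitted rise was 21.7-fold (log2 4.44 ± 0.50 SE, adjusted p = 1.5e-08). Atp2b2, the plasma membrane calcium pump PMCA2 that exports calcium into milk, had 58.5, 123 and 127 at lactation day 1. All 3 pregnant glands were under the floor, at 8.2, 5.3 and 6.5, so its rise was at least 10.3-fold (adjusted p = 1e-11). With a floor at the 40th percentile of the table its log2 difference was 2.09 in place of 3.37.

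Slc39a8, Slc30a4, Kcnk1 and Clcn3 rose by smaller folds. Slc39a8, a zinc and manganese importer, had 267, 687 and 705 at lactation day 1 and 85.3, 107 and 107 at pregnancy day 17.5 (5.1-fold, adjusted p = 1.9e-05). Slc30a4, the exporter ZnT4 that loads zinc into milk, had 503, 478 and 687 against 214, 298 and 201 (2.34-fold, adjusted p = 0.00022). The potassium channel gene Kcnk1 rose 2.93-fold (adjusted p = 0.00026) and Clcn3, a vesicle chloride and proton exchanger, 2.36-fold (adjusted p = 0.003), with no overlap of the groups for either. Over the whole list of ion and water transporters 10 of 41 measured members were higher and 4 lower. The higher count was 6 in a fit of the 6 arrays alone, and the lower count was 2 without lactation mouse B or without pregnancy mouse C and 1 in the fit of the 6 arrays.

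Slc2a1, Slc29a1 and Slc35b1 were also higher. Slc2a1, the glucose transporter GLUT1, had 155, 227 and 247 at lactation day 1 against 52.5, 45.5 and 43.5 at pregnancy day 17.5 (4.38-fold, adjusted p = 0.00024). The equilibrative nucleoside transporter Slc29a1 had 535, 648 and 553 against 182, 211 and 192 (2.96-fold, adjusted p = 1.4e-06). The groups were far apart and tight for this probe set, but the gene's other probe set showed no difference (log2 -0.02 ± 0.56 SE, adjusted p = 0.99 over all probe sets). Slc35b1, a nucleotide carrier of the endoplasmic reticulum, rose 2.66-fold (adjusted p = 1.7e-05).

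Abca1 and Slc1a5 fell. Abca1, the cholesterol exporter, had 21.9, 9.1 and 21.1 at lactation day 1, against 59.6, 82.1 and 83.6 at pregnancy day 17.5 (log2 -2.19 ± 0.37 SE, adjusted p = 2.7e-05). Slc1a5, the neutral amino acid exchanger ASCT2, had 94.7, 82 and 64.5 against 146, 288 and 263 (log2 -1.49, adjusted p = 0.00097). Among 38 measured carriers of amino acids and other organic solutes 9 were higher and 7 lower. These shares of 23.7% and 18.4% compare with 10.2% and 14.2% of all features. The higher count was 3 without lactation mouse B or C and 4 without pregnancy mouse B or C, and the lower count was 2 in a fit of the 6 arrays alone.

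**Figure D2:**
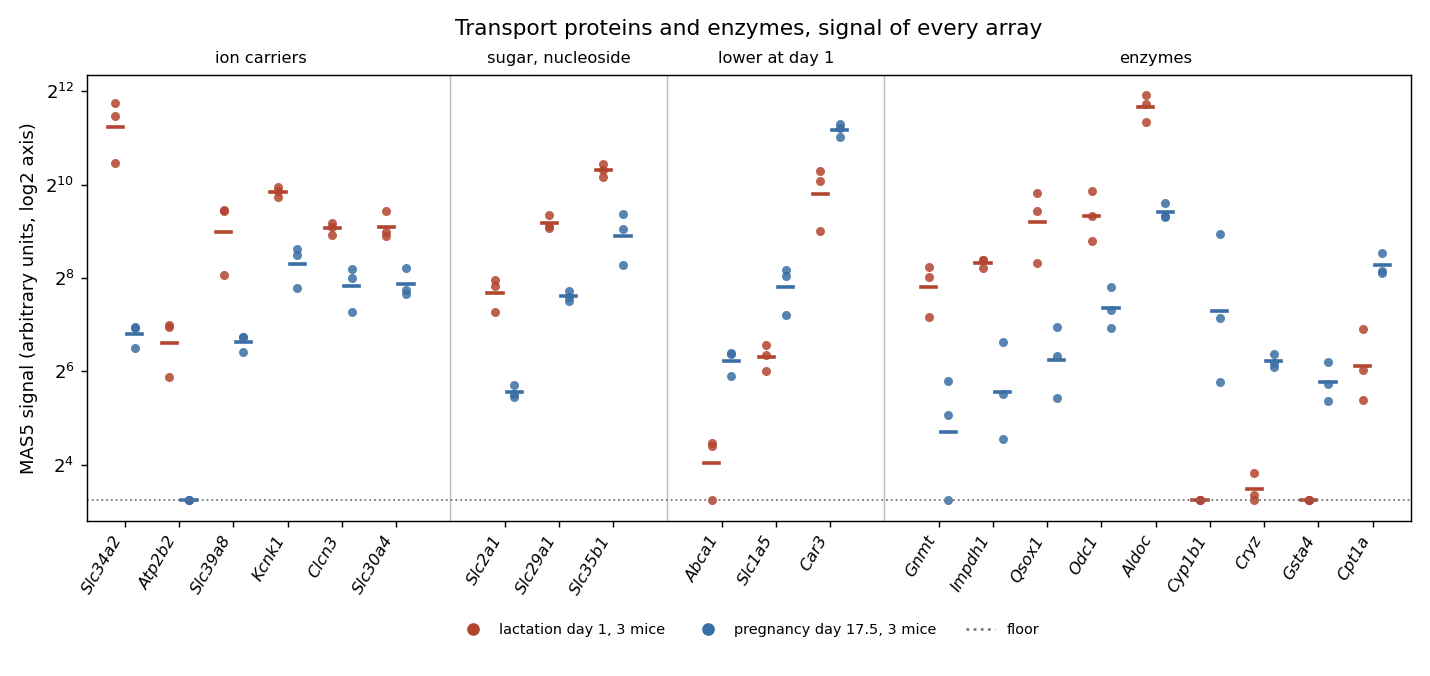
MAS5 signal (log2 axis) of every array for transport proteins and enzymes, lactation day 1 in red at the left of each gene and pregnancy day 17.5 in blue at the right. Points are 3 mice per group, bars their geometric means, and the dotted line the floor of 9.4. All 3 lactating glands are above the pregnant ones for Slc34a2 and under them for Cyp1b1.

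Gnmt, glycine N-methyltransferase, which uses up the methyl donor S-adenosylmethionine, had 142, 300.5 and 259 at lactation day 1 against 55, 33.4 and 8.4 at pregnancy day 17.5 (8.62-fold, adjusted p = 4.5e-08). Its log2 difference was 2.38 without pregnancy mouse C, in place of 3.11. Qsox1, a sulfhydryl oxidase that forms disulfide bonds in secreted proteins, had 321, 909 and 692 against 123, 43.2 and 79.9 (7.81-fold, adjusted p = 9.5e-06), and its other probe set differed by 4.51 in log2. Impdh1, the entry enzyme of guanine nucleotide synthesis, had 335, 296 and 336 against 98.6, 23.5 and 45.5 (6.81-fold, adjusted p = 6.3e-07). The lactating glands were tight for Impdh1 while the pregnant ones spread widely.

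Odc1, ornithine decarboxylase and the first enzyme of polyamine synthesis, had 441, 933 and 639 at lactation day 1 and 224, 159.7 and 121 at pregnancy day 17.5 (3.93-fold, adjusted p = 9.3e-08). Aldoc, an aldolase of glycolysis, had 2612, 3380.5 and 3868 against 645, 635 and 782 (4.74-fold, adjusted p = 1.8e-06). Both genes separated the groups without overlap. Of the 24 measured genes of glycolysis and the pentose phosphate pathway 6 were higher and 0 lower. That count was 3 without lactation mouse B, 2 without pregnancy mouse C and 1 in a fit of the 6 arrays alone. In the synthesis of sialic acid, a sugar of milk oligosaccharides, Nans rose 2.87-fold (adjusted p = 6.6e-05) and Gne 1.86-fold (adjusted p = 0.0015).

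Cyp1b1, Gsta4 and Cryz were among the falls. Cyp1b1, a cytochrome P450 that oxidises oestrogens and foreign compounds, was under the floor in all lactating glands, at 4.5, 5.7 and 9.0, against 54.6, 142 and 492 at pregnancy day 17.5. The fall was at least 16.6-fold (adjusted p = 2.1e-07), and its log2 difference was -3.23 without pregnancy mouse C and -4.81 without pregnancy mouse A. Gsta4, a glutathione transferase for lipid aldehydes, was also under the floor at lactation day 1, at 8.1, 7.5 and 7.6, against 41.4, 73.4 and 52.9 (at least 5.78-fold lower, adjusted p = 0.00075). Cryz, a quinone reductase, had 10.2, 14.1 and 8.1 against 72.8, 82.3 and 67.8 (log2 -2.74 ± 0.33 SE, adjusted p = 6.1e-08). These 3 genes were at or close to the floor after birth, so their folds are limited by it. When the floor was put at the 40th percentile, their log2 differences were -2.78, -1.25 and -1.70.

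Aldh1a1, which makes retinoic acid, had 33.9, 47.0 and 53.2 at lactation day 1 against 176, 169.5 and 139 at pregnancy day 17.5 (log2 -1.87, adjusted p = 4.2e-05), while its other probe set differed by 0.52 in log2 and did not pass. Rbp4, the retinol carrier of plasma, had 128, 60.5 and 122 against 248, 421 and 329.5 (log2 -1.73, adjusted p = 1.4e-06). Of 25 measured genes of vitamin, retinoid, iron and folate metabolism 4 were higher and 5 lower. Those shares of 16% and 20% compare with 10.2% and 14.2% of all features. Without lactation mouse B, and in a fit of the 6 arrays alone, 2 were higher and 3 lower. Without lactation mouse C or pregnancy mouse C, 2 were higher. Cpt1a, the gate of fatty acids into mitochondria, had 121, 41.8 and 65.3 against 284, 277 and 371 (log2 -2.16 ± 0.31 SE, adjusted p = 1.5e-06). Acadm, the medium chain acyl-CoA dehydrogenase, fell by 1.29 in log2 (adjusted p = 7.4e-05). Fatty acid uptake and oxidation had 9 of 18 measured members lower and 1 higher, with 5 lower without lactation mouse B and 2 in a fit of the 6 arrays alone. White adipocyte markers moved with this list: 7 of 13 were lower and 1, Cidea, higher, with 2 lower without lactation mouse B or pregnancy mouse B, and 3 in a fit of the 6 arrays alone. Adipoq, adiponectin, had 1588, 877 and 1383 against 2233, 2954 and 2340.4. The summed signal of the 13 markers was 14903 to 16209 at lactation day 1 and 13389 to 17071 at pregnancy day 17.5, and Cidea is part of that sum. The part of adipocytes in these falls was not tested.

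Mt2 and Mt1, metallothioneins that bind zinc and copper, fell. Mt2 had 440.3, 115 and 94.2 at lactation day 1 against 2182, 1454 and 4364 at pregnancy day 17.5, a log2 difference of -3.84 ± 0.52 SE (adjusted p = 6.4e-07). Without lactation mouse A, the highest lactating gland, it was -4.53. Mt1 had 1034, 1039 and 626 against 2046, 1709.9 and 3516 (log2 -1.40 ± 0.31 SE, adjusted p = 0.00078). The 2 genes lie in the same orientation with start sites 6471 bases apart, and their probe sets may share sequence. Both are known to be switched on through metal response elements. Their promoters are shown for that reason, as the 250 bases before each start in RefSeq (GRCm38.p6). A match of the pattern TGCNCNC, where N is any base, need not be a metal response element. Every match on either strand is in capitals:

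Mt2, chr8:94172368-94172617, plus strand: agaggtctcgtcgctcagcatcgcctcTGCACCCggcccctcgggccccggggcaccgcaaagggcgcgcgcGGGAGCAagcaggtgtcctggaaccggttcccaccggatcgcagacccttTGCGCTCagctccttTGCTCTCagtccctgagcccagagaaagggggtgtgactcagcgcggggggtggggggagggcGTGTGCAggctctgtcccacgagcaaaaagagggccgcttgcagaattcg
Mt1, chr8:94178839-94179088, plus strand: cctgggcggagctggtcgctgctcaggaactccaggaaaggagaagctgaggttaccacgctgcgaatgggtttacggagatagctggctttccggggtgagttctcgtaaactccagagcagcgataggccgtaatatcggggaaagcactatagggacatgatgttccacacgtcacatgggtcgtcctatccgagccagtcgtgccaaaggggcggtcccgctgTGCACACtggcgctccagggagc

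The Mt2 stretch held 5 matches, 3 forward and 2 reverse, and none overlapped another. The Mt1 stretch held 1. Both stretches end at the start listed in RefSeq, and bases past it were not searched. The 2 counts therefore do not rank the promoters of these genes. At least 1 match occurred in 43.8% of 27025 promoter stretches of this length, and 3 or more in 4.61%. A match is a description of letters and does not show that a factor binds there. In the list of antioxidant, glutathione and metallothionein genes, 3 of 42 were higher and 7 lower, shares of 7.14% and 16.7%. Over all features the shares were 10.2% and 14.2%. In a fit of the 6 arrays alone 1 was higher and 5 lower, and 11 were lower when the beta-actin ratio entered the model. Prdx4, the peroxiredoxin of the endoplasmic reticulum, had 915, 1238 and 1522 at lactation day 1 against 425, 373 and 511 at pregnancy day 17.5 (2.77-fold, adjusted p = 5.8e-05). Cyba, a subunit of the superoxide producing NADPH oxidase of phagocytes, fell by 1.56 in log2 (adjusted p = 0.00037).

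Of 43 measured genes of translocation and folding in the endoplasmic reticulum 20 were higher and 1 lower, with a median log2 difference of 0.66, and 12 were higher in a fit of the 6 arrays alone. Fkbp11, a prolyl isomerase of secretory cells, had 2694, 4011 and 3423 at lactation day 1 against 843, 876 and 920.5 at pregnancy day 17.5 (3.79-fold, adjusted p = 8.5e-07). Ssr1, of the translocon associated complex, had 573, 624 and 599 against 309.5, 215 and 114 (3.05-fold, adjusted p = 2e-06). Dad1, a subunit of the oligosaccharyltransferase, rose 2.16-fold (adjusted p = 2.5e-06). The lactating glands differed little among themselves for Ssr1 and Dad1. Hspa5, the chaperone BiP and also chosen after its values were seen, had 1635, 949 and 1142 against 793, 811 and 871 and did not pass (adjusted p = 0.09). Xbp1, the transcription factor of the unfolded protein response, had 1695, 1396 and 2041 against 1362, 1101 and 1578 (log2 0.34 ± 0.21 SE, adjusted p = 0.24). Trib3, a pseudokinase induced through ATF4 in amino acid shortage and stress, had 57.8, 112 and 103 against 28.1, 25.2 and 10.9 (4.42-fold, adjusted p = 0.00024).

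Among 47 measured genes of vesicle coats, Golgi and secretion, 11 were higher and 3 lower, and the higher count was 6 without pregnancy mouse C and in a fit of the 6 arrays alone. Rab18, a small GTPase of lipid droplets, had 1122, 1311 and 1515 at lactation day 1 against 694, 476 and 393 at pregnancy day 17.5 (2.58-fold, adjusted p = 0.00029). Tmed3, a cargo receptor of the early secretory pathway, rose 2.34-fold (adjusted p = 0.00062) and Copz1, a coat subunit of Golgi vesicles, 2.03-fold (adjusted p = 7e-06). Among the junction genes Cldn3, a claudin of tight junctions, had 170.5, 143 and 235 against 613, 596 and 1016 (log2 -2.01 ± 0.30 SE, adjusted p = 4.1e-06). Its other probe set fell by 1.72. Of the 23 measured genes of gap and tight junctions, 2 were higher and 6 lower. These shares of 8.70% and 26.1% compare with 10.2% and 14.2% of all features. In a fit of the 6 arrays alone 0 were higher and 4 lower. The 2 higher were Cldn8, another claudin, and Gjb1, a gap junction protein. Their geometric means were 492 and 64.3 at lactation day 1 against 109 and 12.5 at pregnancy day 17.5.

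Secreted signals and receptors differed in both directions. Egf, epidermal growth factor, which is a component of mouse milk, had 150.2, 541 and 418 at lactation day 1 against 45.2, 31.6 and 6.1 at pregnancy day 17.5 (13.6-fold, adjusted p = 1.5e-07). Without pregnancy mouse C its log2 difference was 3.10 in place of 3.77. Erbb3, a receptor partner for neuregulins in the same family, had 73.0, 53.6 and 80.5 against 335, 209 and 553 (log2 -2.31 ± 0.36 SE, adjusted p = 8.2e-06). Kit, the stem cell factor receptor of luminal progenitor cells, had 46.2, 11.4 and 6.8 against 188, 108 and 175 (log2 -3.16 ± 0.39 SE, adjusted p = 1.2e-07), and -3.88 without lactation mouse A or -2.40 with the 40th percentile as floor. Mouse A was the least changed lactating gland for Egf and for Kit.

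Wnt4, Rspo1 and Tnfsf11, known to act downstream of progesterone, fell to the floor or close to it. Wnt4 had 8.8, 7.9 and 7.4 at lactation day 1 against 38.9, 56.9 and 112 at pregnancy day 17.5, a fall of at least 6.69-fold (adjusted p = 1.4e-05). Rspo1, an amplifier of Wnt signals made by luminal cells, had 2.2, 16.0 and 2.1 against 121, 203 and 185 (log2 -3.88 ± 0.30 SE, adjusted p = 6e-13). With no floor its log2 difference was -5.30, and it was -2.86 when the floor was put at the 40th percentile. Tnfsf11, RANKL, had 1.7, 11.3 and 10.2 against 22.8, 36.5 and 54.4 (log2 -1.79 ± 0.44 SE, adjusted p = 0.0022). The groups did not overlap, but the Tnfsf11 call was lost with no floor, at a log2 difference of -2.62, and when the floor was put at the 40th percentile, at -0.64, where the adjusted p was 0.0647. Pth1r, the receptor of parathyroid hormone and of its related protein from the breast, had 12.8, 5.3 and 8.7 against 42.3, 70.5 and 57.5 (log2 -2.41 ± 0.49 SE, adjusted p = 0.00029). With the 40th percentile as floor the log2 differences of Wnt4 and Pth1r were -1.46 and -1.28.

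The Wnt list as a whole stayed close to the background, with 3 of 33 measured members higher and 5 lower and a median log2 difference of 0.08. Without lactation mouse B, 1 was higher. Sfrp1, a secreted Wnt antagonist, had 66.4, 69.2 and 106 at lactation day 1 against 25.5, 18.4 and 40.5 at pregnancy day 17.5 (2.95-fold, adjusted p = 0.0011). The corepressor gene Tle3 fell by 0.82 in log2 (adjusted p = 0.0011). Tgfb3, a cytokine of the TGF-beta family, had 360.5, 257 and 251 against 408, 368 and 468 and did not pass (adjusted p = 0.13). Tph1, the serotonin synthesis enzyme, had 23.8, 20.2 and 19.5 against 6.3, 13.1 and 9.9 and did not pass either (adjusted p = 0.26). Areg, Prlr, Pthlh, Igfbp5 and Saa1 were not analysed here.

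Inside the cell, Akt1, the kinase tied to glucose uptake and lipid synthesis in the lactating gland, had 965, 1128 and 1026 at lactation day 1 against 467, 418 and 423 at pregnancy day 17.5 (2.38-fold, log2 1.25 ± 0.32 SE, adjusted p = 0.0037). Both groups were tight. Phlda1, a pleckstrin homology protein linked to growth factor signalling, had 91.1, 26.0 and 43.6 against 563, 740.3 and 1134 (log2 -4.05 ± 0.36 SE, adjusted p = 4.4e-11). Phlda3, a related inhibitor of AKT, fell by 1.2 (adjusted p = 0.0065). Rgs16, which shortens G protein signals, had 349.7, 237 and 168 against 894, 870.0 and 888 (log2 -1.88 ± 0.30 SE, adjusted p = 9.1e-06), and its other probe set fell by 2.13. The pregnant glands were nearly equal for Rgs16.

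Nras, a RAS GTPase, had 125, 77.5 and 126 at lactation day 1 against 319.7, 492 and 445 at pregnancy day 17.5 (log2 -1.95 ± 0.25 SE, adjusted p = 1.6e-07), while its other probe set differed by -0.54 and did not pass. Gab1, a docking protein below receptor kinases, fell by 0.81 (adjusted p = 0.0023). Mapk9, the kinase JNK2, rose 2.95-fold (adjusted p = 0.0029), with a log2 difference of 1.56, or 0.92 with the 40th percentile as floor. Of 38 measured MAP kinase and phosphatase genes 2 were higher and 9 lower. The lower count was 3 without lactation mouse B, 4 without pregnancy mouse C and 2 in a fit of the 6 arrays alone. Smad4, the shared mediator of TGF-beta and BMP signals, had 61.2, 47.6 and 78.3 against 159, 132 and 194 (log2 -1.38, adjusted p = 0.002). In that pathway 0 of 31 measured members were higher and 8 lower, with 2 lower without lactation mouse B, without pregnancy mouse C, and in a fit of the 6 arrays alone.

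**Figure D3:**
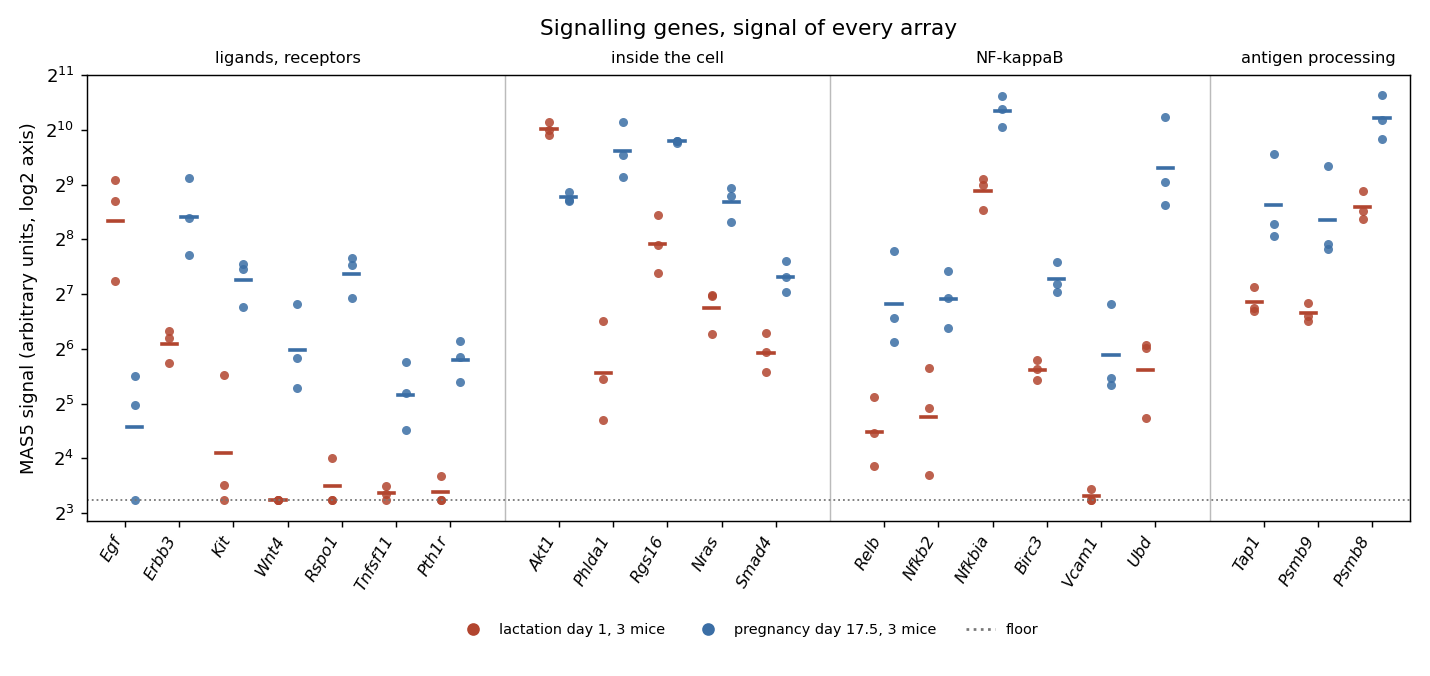
MAS5 signal (log2 axis) of every array for signalling genes, lactation day 1 in red at the left of each gene and pregnancy day 17.5 in blue at the right. Points are 3 mice per group, bars their geometric means, and the dotted line the floor of 9.4. Egf and Akt1 are higher at lactation day 1, and every other gene drawn is lower there.

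Relb, Nfkb2 and Nfkbia, of the NF-kappaB pathway through which RANKL and inflammatory cytokines act, fell. On the whole NF-kappaB list 4 of 29 measured members were higher, 6 lower and 19 not called. The shares called were 13.8% and 20.7%, against 10.2% and 14.2% of all features. Without pregnancy mouse C, 3 were lower. The higher count was 2 without lactation mouse B or C or without pregnancy mouse B, and 1 with no floor. Relb, a subunit of the noncanonical pathway, had 34.6, 22 and 14.6 at lactation day 1 against 69.6, 94.1 and 222 at pregnancy day 17.5 (log2 -2.34 ± 0.44 SE, adjusted p = 9.9e-05). Nfkb2, its partner, had 50.3, 30.2 and 13.0 against 83.7, 121 and 171 (log2 -2.15 ± 0.46 SE, adjusted p = 0.00055). Nfkbia, the inhibitor that the pathway itself induces, had 372, 506 and 550.4 against 1062, 1333 and 1578 (log2 -1.48 ± 0.25 SE, adjusted p = 2e-05). All 3 genes separated the groups, and pregnancy mouse C was the highest for each. Irak1, a kinase of the interleukin-1 receptor, rose 1.83-fold (adjusted p = 0.0063). The other higher members were Traf1, Il6ra and Tnfrsf11a, the receptor of RANKL. Of 17 alternatives, Traf1 lost its call in 1, with no floor, Il6ra in 7 and Tnfrsf11a in 9.

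Birc3, an apoptosis inhibitor and textbook NF-kappaB target, had 49.6, 55.6 and 43.1 at lactation day 1 against 146, 131 and 192 at pregnancy day 17.5 (log2 -1.65, adjusted p = 0.00013). Ubd, the ubiquitin-like protein FAT10, induced by tumour necrosis factor and interferon, had 64.9, 67.0 and 26.6 against 394, 526 and 1204 (log2 -3.69 ± 0.53 SE, adjusted p = 1.7e-06). Vcam1, a cell adhesion molecule, had 8.2, 5.4 and 10.9 against 40.5, 44.4 and 113 (log2 -2.57, adjusted p = 2.8e-05), and 1 of its other probe sets fell by 1.26, while another differed by -0.39 and did not pass. With a floor at the 40th percentile the Vcam1 difference was -1.37. The promoters of Nfkb2, Nfkbia and Ubd are shown because these genes fell together, as the 250 bases before the start in RefSeq (GRCm38.p6), with matches of the kappaB consensus on either strand in capitals. Nfkb2 has 3 listed starts, and the stretch before the first listed is given:

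Nfkb2, chr19:46304487-46304736, plus strand: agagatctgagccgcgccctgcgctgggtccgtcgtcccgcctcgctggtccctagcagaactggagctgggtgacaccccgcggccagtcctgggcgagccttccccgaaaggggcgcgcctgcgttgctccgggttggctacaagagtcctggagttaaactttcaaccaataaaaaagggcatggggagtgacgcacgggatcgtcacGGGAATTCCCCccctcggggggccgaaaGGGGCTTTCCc
Nfkbia, chr12:55492648-55492897, minus strand: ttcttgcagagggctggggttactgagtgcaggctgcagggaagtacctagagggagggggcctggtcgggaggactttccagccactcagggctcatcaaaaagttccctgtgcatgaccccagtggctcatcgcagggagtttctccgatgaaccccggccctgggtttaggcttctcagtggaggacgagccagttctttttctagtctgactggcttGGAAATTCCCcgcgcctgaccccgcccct
Ubd, chr17:37193642-37193891, plus strand: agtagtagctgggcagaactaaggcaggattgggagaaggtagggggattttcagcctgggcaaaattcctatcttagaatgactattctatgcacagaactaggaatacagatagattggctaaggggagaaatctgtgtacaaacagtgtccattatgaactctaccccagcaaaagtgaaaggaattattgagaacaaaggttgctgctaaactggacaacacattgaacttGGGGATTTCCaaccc

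The Nfkb2 stretch held 4 matches that merge into 2 separate runs, and Nfkbia and Ubd held 1 each. In all 3 a match lay within 40 bases of the start. At least 1 match occurred in 7.0% of 27025 promoter stretches. The genes were picked for their fall and for their known link to the pathway, so the count of 3 in 3 is a description of a choice.

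Tap1, Psmb9 and Psmb8 also fell. Tap1, the peptide transporter of the class I pathway, had 141, 104 and 107 at lactation day 1 against 267, 310.0 and 753 at pregnancy day 17.5 (log2 -1.77 ± 0.28 SE, adjusted p = 8.7e-06). Psmb9, an immunoproteasome subunit, had 96.8, 115 and 90.7 against 226, 243 and 647 (log2 -1.71 ± 0.34 SE, adjusted p = 0.00022). These 2 genes lie head to head on chromosome 17 with start sites 226 bases apart. Psmb8, another immunoproteasome subunit, had 473, 367 and 331 against 913, 1158 and 1590.5 (log2 -1.62, adjusted p = 5.1e-08). Pregnancy mouse C was the highest gland for all 3, and the groups did not overlap. Among 23 measured interferon-stimulated genes 1 was higher, 6 lower and 16 not called, with a median log2 difference of -0.67. The gene that was higher was Isg20, an exonuclease, at 272, 582 and 412 against 140.3, 71.3 and 34.5 (5.74-fold, adjusted p = 5.9e-07). Irf8, a transcription factor of myeloid cells, was under the floor at lactation day 1, at 9.0, 5.2 and 4.0, against 34.8, 47.7 and 91.6 (at least 5.68-fold lower, adjusted p = 1.6e-06). Its log2 difference was -3.22 with no floor, and -1.23 when the floor was put at the 40th percentile.

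Markers of macrophages moved with these genes: 8 of 13 were lower and 0 higher, with a median log2 difference of -1.0. Their summed signal was 1824 to 2004 at lactation day 1 and 3009 to 5185 at pregnancy day 17.5. Lyz2, lysozyme, had 223, 246 and 209.9 against 509.6, 529.7 and 1000.4 (log2 -1.52, adjusted p = 2.5e-05). Fibroblast and matrix genes moved the same way, with 13 of 18 lower and 0 higher, and a summed signal of 4952 to 6030 against 8027 to 13383. Both counts leaned on single glands. Without pregnancy mouse C they were 2 and 4, without lactation mouse B 5 and 8, and in a fit of the 6 arrays alone 3 and 7, for macrophages and fibroblasts in turn. T cell markers had 1 of 8 higher and 1 lower, shares of 12.5% each that are near the 10.2% and 14.2% of all features. The lower one was Thy1, which is also on the fibroblast list. B and plasma cell markers had 0 of 9 called in either direction. The part of macrophages and fibroblasts in the falls among the NF-kappaB and interferon genes was not tested.

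Stat5a, Elf5 and Cish did not pass the test. Stat5a, the prolactin activated transcription factor, had 701, 512 and 672 at lactation day 1 against 679, 591 and 696 at pregnancy day 17.5 (log2 -0.07 ± 0.17 SE, adjusted p = 0.80). Elf5, an alveolar ETS factor, had 1746, 990.2 and 1939 against 1239, 1062 and 1402 (log2 0.29 ± 0.29 SE, adjusted p = 0.50). Cish, a STAT5 target, had 132, 298 and 164 against 248, 255 and 263 (adjusted p = 0.36). The groups overlapped for all 3. Socs2, another STAT5 target, had 50, 62.9 and 71.4 against 88.2, 115 and 229 (log2 -1.12, adjusted p = 0.018), but lost its call without lactation mouse A or B or pregnancy mouse C, where the highest adjusted p was 0.178. Srebf1, which drives lipid synthesis genes, had 1706, 1829 and 2484 against 693, 1037 and 1777 (adjusted p = 0.025). The groups overlapped for Srebf1, and its call was lost without lactation mouse B or C and without pregnancy mouse A or B, where the highest adjusted p was 0.203. In the prolactin, STAT5 and steroid list 3 of 29 measured members were higher and 7 lower. Their shares of 10.3% and 24.1% compare with 10.2% and 14.2% of all features. With 1 array left out the higher count was 0 to 2, and the lower count was 4 without lactation mouse B. The 3 higher members, Esr1, Tnfrsf11a and Ccnd1, all lost their call without lactation mouse B and without pregnancy mouse A or B. Ghr, the growth hormone receptor, fell by 1.02 in log2 (adjusted p = 0.0013) and Hsd11b1, which regenerates active glucocorticoid, by 1.33 (adjusted p = 0.0024).

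Rxra, Rora and Creb1 were higher. Rxra, the retinoid X receptor alpha, had 256, 244 and 232 at lactation day 1 against 136, 98.0 and 116 at pregnancy day 17.5 (2.1-fold, adjusted p = 0.00039), and its other probe set rose by 1.06 in log2. Rora, a nuclear receptor of the clock, had 118, 159 and 204 against 85.7, 49.2 and 38.0 (2.88-fold, adjusted p = 0.00015). Creb1, the cyclic AMP response factor, had 38.2, 55.2 and 45.6 against 20.5, 5.6 and 6.2 (3.76-fold, adjusted p = 0.0055), while its other probe set differed by 0.26 and did not pass. With the 40th percentile as floor the Creb1 difference was 1.01 in log2, in place of 1.91. Myc, the growth regulator, had 56.1, 34.2 and 18.3 against 119, 98.0 and 121 (log2 -1.77 ± 0.34 SE, adjusted p = 0.00014). Of 95 epithelial and metabolic transcription factors 8 were higher and 14 lower, shares of 8.42% and 14.7% that are near the 10.2% and 14.2% of all features. Without lactation mouse B the counts were 3 and 7, without lactation mouse C 3 were higher, and in a fit of the 6 arrays alone they were 5 and 3.

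Among 33 measured immediate early genes 14 were lower and 1 higher, with a median log2 difference of -0.63. The lower count was 8 without lactation mouse B, 9 without pregnancy mouse A, 7 without pregnancy mouse C and 6 in a fit of the 6 arrays alone. Ppp1r15a, the stress phosphatase subunit GADD34, had 17.8, 13.9 and 15 at lactation day 1 against 55.3, 70.6 and 54.3 at pregnancy day 17.5 (log2 -1.95, adjusted p = 0.0012). Gadd45a, a growth arrest gene, had 37.5, 21.5 and 17.6 against 54.6, 94.4 and 96.2 (log2 -1.71, adjusted p = 0.00021). Zfp36l1, which destabilises mRNAs, had 129, 57.1 and 103 against 284, 246 and 374 (log2 -1.71, adjusted p = 0.00015). All 3 had no overlap between the groups.

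Saa2, Saa3, Lbp and Pigr, all of innate defence, rose. Saa2, an acute phase serum amyloid, had the largest difference of all named genes, with 1355, 4161 and 5351 at lactation day 1 against 212, 71.4 and 23.2 at pregnancy day 17.5 (44.1-fold, log2 5.46 ± 0.59 SE, adjusted p = 8.4e-09). Its log2 difference was 6.06 without lactation mouse A, 6.26 without pregnancy mouse A and 4.66 without pregnancy mouse C, and the gene's other probe set rose by 3.20. Serum amyloid genes are close copies, so the probe sets may read more than 1 of them. Saa3 had 86.0, 249.6 and 193 against 29.3, 20.9 and 5.8 (8.96-fold, adjusted p = 6.3e-07). Lbp, the lipopolysaccharide binding protein, had 1347, 1143 and 1918 against 421, 301 and 397 (3.89-fold, adjusted p = 1.6e-08). Pigr, which carries immunoglobulin A into milk, had 4530.2, 5261 and 7900.0 against 1754, 1566 and 2652 (2.96-fold, adjusted p = 7.2e-06). The lowest lactating gland exceeded the highest pregnant one for each of these genes.

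Of 25 measured genes of acute phase and innate defence 9 were higher and 2 lower. The lower count was 3 without pregnancy mouse C, 2 without lactation mouse A, and 1 when any other single array of the comparison was left out. Slpi, a secreted protease inhibitor, ran the other way, at 87.8, 117 and 46.0 against 249, 423 and 678 (log2 -2.41 ± 0.38 SE, adjusted p = 7e-06). Of its other probe sets, 1 fell by 1.08, and the remaining 2 were higher by 0.59 and 0.57 without passing. Neutrophil markers were 1 of 6 higher, and that one was Lcn2, lipocalin 2, which epithelium also makes (2.82-fold, adjusted p = 0.00013). S100a9, Ly6g and Mpo were too dim to be tested.

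Luminal markers were called in both directions, and basal markers only lower. Of 16 luminal markers 3 were higher and 5 lower, with a median log2 difference of -0.37. With a floor at the 40th percentile 1 was higher, and in a fit of the 6 arrays alone 3 were lower. Of the 3 higher, Esr1 lost its call with any 1 of the 6 arrays left out. The summed signal of the 16 luminal markers was 6426 to 8156 at lactation day 1 and 4774 to 6841 at pregnancy day 17.5. Muc1, a mucin of the milk fat globule membrane, had 3020.2, 5835 and 4854 against 944, 686 and 698 (5.74-fold, adjusted p = 5.6e-07). Basal and myoepithelial markers had 0 of 15 higher and 4 lower, or 1 lower without lactation mouse B. The share lower, 26.7%, compares with 14.2% of all features. The defining basal keratins Krt5 and Krt14 were too dim to be tested. In the cell cycle list, 5 of 55 were higher and 8 lower. These shares of 9.09% and 14.5% are near the 10.2% and 14.2% of all features. With any 1 of the 6 arrays left out only 1 to 3 were higher. Cdk4, the kinase of the first gap phase, had 358, 268 and 289.7 against 633, 818 and 926 (log2 -1.37, adjusted p = 6.5e-06). Cdkn1a, the cycle inhibitor p21, had 22.3, 11.3 and 15.2 against 40.1, 26.5 and 10 and did not pass (adjusted p = 0.49), nor did Actb, the cytoskeletal actin, at 653, 392 and 496 against 654, 547 and 214 (adjusted p = 0.65). The list of 32 proteasome genes had 8 lower and 1 higher, with 5 lower without lactation mouse C and 3 in a fit of the 6 arrays alone. Psme1, an activator subunit of the immunoproteasome, fell by 1.26 in log2 (adjusted p = 1.9e-06).

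Seen over the 18 time points, the higher genes followed different courses. Atp2b2 was at or near the floor through pregnancy, with a geometric mean of 97 at lactation day 1, 147 at day 3 and 174 at day 7, and 10.7 at involution day 1. Slc34a2 had 31.7, 83.4 and 111 at pregnancy days 12.5, 14.5 and 17.5, then 2398 at lactation day 1 and 4049.9 at lactation day 7. Saa2 had 3113 at lactation day 1, 944 at lactation day 7 and 6260.1 at involution day 1. Impdh1 had 322, 399 and 247 at lactation days 1, 3 and 7, and 10.4 at involution day 1. Among genes that fell, Kit had 153 at pregnancy day 17.5, 17 at lactation day 1 and 259 at involution day 1. Mt2 had 2402 at pregnancy day 17.5, 168 at lactation day 1 and 5439 at involution day 1. Wnt4 stayed at or near the floor, with 9.4 at lactation day 1 and 9.4 at involution day 20. These levels are descriptions, and no test was run on the other time points.

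**Figure D4:**
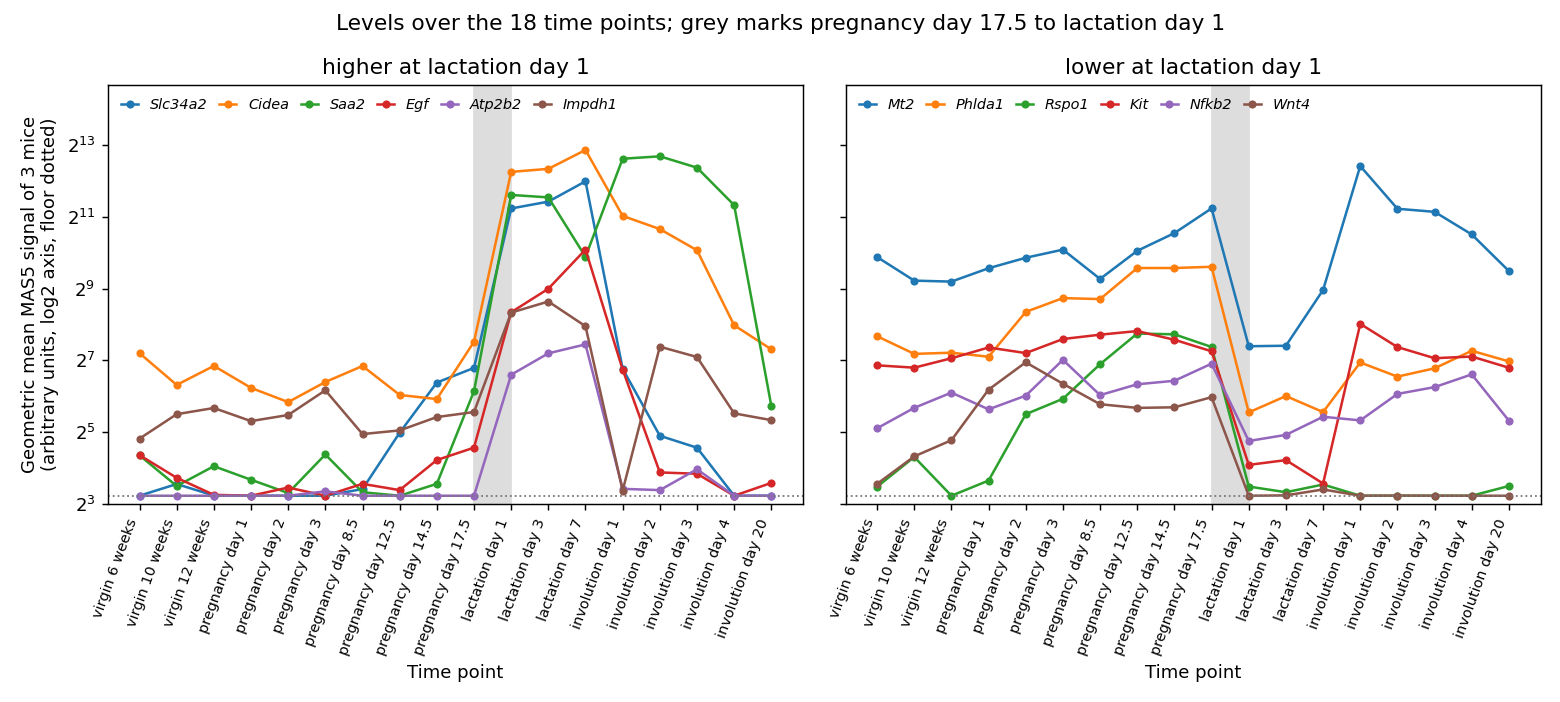
Geometric mean MAS5 signal of 3 mice (log2 axis, floor of 9.4 dotted) at each of the 18 time points for 6 genes higher (left) and 6 genes lower (right) at lactation day 1. Grey marks the step from pregnancy day 17.5 to lactation day 1; Kit and Mt2 are high again at involution day 1, while Wnt4 and Rspo1 are not.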

How the data were processed

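The 54 arrays hold mammary RNA of 18 time points, 3 mice each, and the groups come from the array titles. The deposited table gives intensity as MAS5 signal on a linear scale for 12488 probe sets, made with MAS5 per the submitters' processing notes, and neither scaling target, version nor detection calls were used here. The number of arrays limits the precision. After leaving out 66 controls, 12422 probe sets stayed, of which 10833 carry a single gene symbol in the platform annotation, 396 several and 1193 none, and symbols of this annotation can be old. Signals were floored at 9.4, the 25th percentile of the table, and taken to log2. A probe set was kept if some time point had its 3 arrays all over 22.8, the 40th percentile (8640 were), and the probe set with the highest mean stood for each symbol, which gave 7311 features, 6441 of them named. A feature is called a gene where it has a name.

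limma 3.58.1 in R 4.3.3 fitted 1 mean per time point over all 54 arrays, so that all time points share 1 estimate of the spread, with a variance trend, and the contrast was lactation day 1 minus pregnancy day 17.5 with Benjamini-Hochberg adjustment over the 7311 features. A feature was called at an adjusted p under 0.05. A fold is a bound where all arrays of a group are under the floor. On data simulated with known answers for this comparison, 71% of features changed 2-fold and 99% of those changed 4-fold were recovered. The simulation held all 7311 features, but the changed ones were drawn only from brighter features. These rates therefore say nothing of features near the floor.

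The members and the 47 gene lists, 35 of pathways and 12 of cell types, were chosen with earlier results of these data known. Genes were named by a rule: the 15 largest rises and 15 largest falls among called genes whose groups do not overlap, up to 6 called members in each direction per list, the brightest member of a list with fewer than 2 called, and a fixed set of 25 genes. Of the 312 measured genes this gave, those that kept their call under every alternative were preferred. Markers of other cell types are named for their list, and Wap and Hspa5 were added after their values were seen. The alternatives were other floors, filters, scalings and fits, no collapsing of probe sets, the array letter as a replicate block, each array left out, and the beta-actin ratio in the model, which was chosen after seeing the data. Promoters are from RefSeq (GRCm38.p6); the deposited table names no genome build.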

Additional observations from a re-analysis of the deposited data

How the results depend on the processing

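The 1783 calls (747 higher, 1036 lower) were 1749 with no floor, 1842 with a floor at the 40th percentile, 1805 after quantile normalization, 1774 with equal medians, 1343 with array quality weights and 1627 when the beta-actin ratio entered the model. A fit of the 6 arrays alone, which has fewer arrays to estimate the spread, gave 707 (307 higher, 400 lower). Leaving out 1 array gave 954 to 1791 in all, 384 to 781 higher and 570 to 1033 lower. The lowest values came without lactation day 1 mouse B, and without pregnancy day 17.5 mouse B 495 were higher; the cause was not tested. Arrays of the same letter did not deviate together (correlations -0.085, -0.075 and -0.026), so the letters do not pair the mice, and the fit with the letter as a replicate block gave 1854 calls (779 higher, 1075 lower). Of the 301 genes called under the naming rule, 125 kept their call in all 17 alternatives and 0 reversed. The fit of the 6 arrays alone lost 139 of these calls, leaving out lactation mouse B lost 111 and leaving out pregnancy mouse C lost 81. Depth is unknown for arrays without detection calls, and differences near the floor are limited by it.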

Other observations

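Some of the largest differences belonged to genes outside the lists. Rbfox2, a splicing regulator, had signals of 1496, 4244 and 1835 at lactation day 1 against 384, 343 and 181 at pregnancy day 17.5 (7.87-fold, adjusted p = 1.6e-05). Trabd had 196, 248 and 126 against 70, 26.5 and 9.7 (6.98-fold, adjusted p = 0.00026), with a log2 difference of 3.51 without pregnancy mouse A and 2.09 without pregnancy mouse C in place of 2.80. Rangrf had 7.5, 14 and 15.2 against 99.0, 104 and 75.1 (log2 -2.86, adjusted p = 0.00085), or -2.01 with a floor at the 40th percentile. Plscr2, of the scramblase family, had 22.8, 24.7 and 5.7 against 102, 105 and 99.0 (log2 -2.55, adjusted p = 2.9e-05). These 4 genes were picked among called genes whose groups do not overlap, so their lack of overlap was set by the choice. The groups did not overlap for 36.8% of all features.

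Bckdhb, Idh1, Vwf and Rpl22 were also lower. Bckdhb, of the branched chain ketoacid dehydrogenase, had 99.9, 86.4 and 153 at lactation day 1 against 238, 250.2 and 198 at pregnancy day 17.5 (log2 -1.05, adjusted p = 0.00019). Idh1, the cytosolic isocitrate dehydrogenase, had 122, 59.0 and 109 against 223, 262 and 178 (log2 -1.24, adjusted p = 0.0009). Vwf, a clotting factor of endothelium, had 6.0, 14.2 and 10.8 against 34.1, 49.5 and 109.7 (log2 -2.34, adjusted p = 1e-05). Of 13 measured endothelial markers 2 were lower and 0 higher. The share lower, 15.4%, is near the 14.2% of all features. The other lower marker, Cd34, lost its call in 4 of the fits with 1 array left out. With a floor at the 40th percentile the Vwf difference was -1.32. Rpl22, a ribosomal protein, had 56.4, 29.8 and 56.8 against 167, 221 and 106 (log2 -1.79, adjusted p = 2.1e-05). Of 24 measured cytosolic ribosomal proteins 5 were lower and 1 higher. These shares of 20.8% and 4.17% compare with 14.2% and 10.2% of all features. Without lactation mouse B 3 were lower, and in a fit of the 6 arrays alone 2.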
